A study of Mus musculus with 8 samples.

Results

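RXR peaks were examined at 8 genes for orphan nuclear receptors: the Nr4a genes Nr4a1, Nr4a2 and Nr4a3, the COUP-TF genes Nr2f1, Nr2f2 and Nr2f6, and the testicular receptor genes Nr2c1 and Nr2c2. A peak was counted at a gene when its summit lay inside the gene or within 50 kb of it, with gene positions from RefSeq on the mouse build mm10. Of 23961 peaks deposited for 4 newborn hearts, 37 met this rule: 0 of 8 peaks in edKO replicate 3, 0 of 127 in edKO replicate 4, and in the WT hearts 28 of 19129 in replicate 3 and 9 of 4697 in replicate 4. The edKO hearts came from newborns that lacked the retinoid X receptors RXR alpha and RXR beta in cardiomyocytes only, and the WT hearts from wild-type newborns, all at postnatal day 0. Neither the driver of the deletion nor the strain is stated in the labels. Chromatin of each whole heart was fixed, sheared and precipitated with 1 RXR antibody, and an input library was kept, which gave 8 libraries from 2 hearts per genotype. The hearts were separate biological replicates.

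RXR proteins bind DNA as partners of other nuclear receptors, mostly at repeats of a short hexamer. The orphan receptors here meet RXR in several ways. The proteins of Nr4a1 and Nr4a2 can pair with RXR, while that of Nr4a3 is known to act without it, and all Nr4a genes are immediate early genes that are switched on rapidly by stress and hormones. COUP-TFs and the testicular receptors bind many of the same hexamer repeats and often repress there. In the heart, COUP-TFII, the product of Nr2f2, is known for its place in atrial and venous identity. The peaks mark where chromatin near these genes was enriched with the RXR antibody. They hold no transcript or protein levels.

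Sequences are shown for the 4 genes whose promoter overlapped a peak. At Nr2c1 alone the RefSeq start itself lay under a peak in both WT hearts. The sequences are the 250 bases before the RefSeq start (table of build GRCm38.p6), written 5′ to 3′ on the strand of the gene. Capitals mark the bases under a peak in both WT hearts, or, for Nr2f6, under the peak of WT replicate 3 only.
Nr4a2, chr2:57124004-57124253, minus strand: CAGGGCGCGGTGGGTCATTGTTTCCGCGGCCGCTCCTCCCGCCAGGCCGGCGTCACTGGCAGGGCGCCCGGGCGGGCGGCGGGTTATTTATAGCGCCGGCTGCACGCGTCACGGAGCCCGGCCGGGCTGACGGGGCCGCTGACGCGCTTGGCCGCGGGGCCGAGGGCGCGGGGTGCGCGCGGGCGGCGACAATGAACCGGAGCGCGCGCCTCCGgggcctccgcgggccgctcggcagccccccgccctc
Nr2c1, chr10:94147681-94147930, plus strand: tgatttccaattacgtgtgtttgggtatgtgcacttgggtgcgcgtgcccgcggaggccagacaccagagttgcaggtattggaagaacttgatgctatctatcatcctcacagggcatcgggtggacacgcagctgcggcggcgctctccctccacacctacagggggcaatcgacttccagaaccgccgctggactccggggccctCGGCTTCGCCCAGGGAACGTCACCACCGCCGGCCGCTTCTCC
Nr2c2, chr6:92092183-92092432, plus strand: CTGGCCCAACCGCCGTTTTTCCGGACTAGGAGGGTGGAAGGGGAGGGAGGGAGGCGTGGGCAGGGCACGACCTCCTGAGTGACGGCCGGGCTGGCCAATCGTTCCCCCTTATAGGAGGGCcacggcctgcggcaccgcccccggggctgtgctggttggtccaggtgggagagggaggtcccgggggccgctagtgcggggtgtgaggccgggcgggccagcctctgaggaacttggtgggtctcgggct
Nr2f6, chr8:71381953-71382202, minus strand: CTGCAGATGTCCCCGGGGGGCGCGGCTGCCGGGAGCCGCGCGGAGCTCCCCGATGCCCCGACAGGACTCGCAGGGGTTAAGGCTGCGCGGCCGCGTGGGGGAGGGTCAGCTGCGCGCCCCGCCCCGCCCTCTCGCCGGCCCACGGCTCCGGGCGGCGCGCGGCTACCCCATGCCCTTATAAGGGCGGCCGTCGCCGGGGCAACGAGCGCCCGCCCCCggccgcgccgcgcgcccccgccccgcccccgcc
The capitals cover 214 bases at Nr4a2, 42 bases at Nr2c1, 120 bases at Nr2c2 and 217 bases at Nr2f6. The summits lay inside the printed stretch at Nr4a2 (base 34 in WT replicate 3 and base 55 in WT replicate 4) and at Nr2f6 (base 66).

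The stretches before the starts of all 8 genes were searched on both strands for the hexamer AGGTCA, for AAAGGTCA, the site known for Nr4a proteins, and for 2 copies of AGGTCA in direct repeat with 0 to 5 bases between them and at most 1 mismatch. AAAGGTCA contains AGGTCA, so the first 2 searches overlap. None of them matched at any of the 8 genes. Among all 21262 stretches of protein-coding genes 12.8% held AGGTCA, 1.2% held AAAGGTCA and 1.43% held the direct repeat. The related hexamer GGGTCA, which was searched after the sequences had been seen, occurred at bases 12 to 17 of the Nr4a2 stretch and at bases 103 to 108 of the Nr2f6 stretch. It occurred in 11.6% of all stretches. The search was limited to the promoter table, and summits away from annotated starts were not searched.

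**Figure D1:**
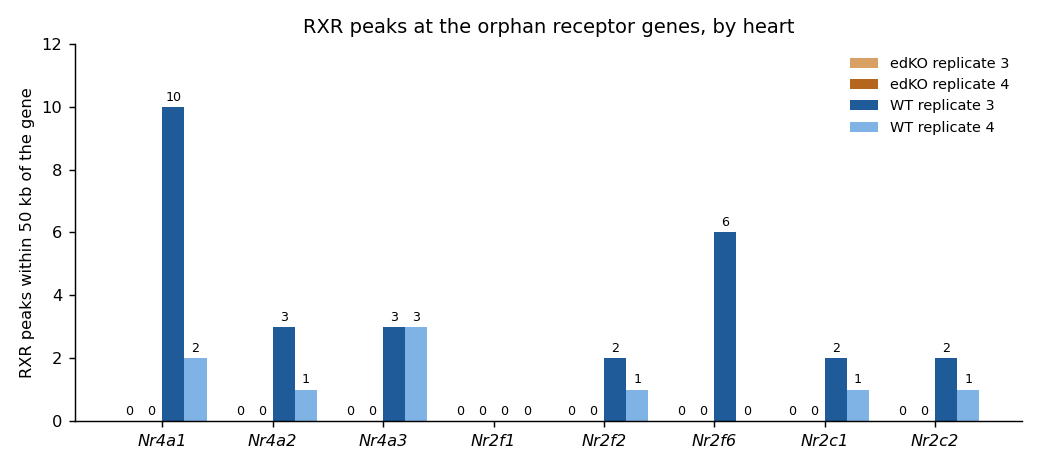
Number of RXR peaks (vertical axis) with the summit inside or within 50 kb of each orphan receptor gene (horizontal axis), with 1 bar per heart and the number printed above it. Every edKO bar is at 0, and the WT replicate 3 bars run from 0 at Nr2f1 to 10 at Nr4a1.

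The first comparison asked how far the signal at these genes depended on Rxra and Rxrb in cardiomyocytes. None of the 8 genes had a peak within 50 kb in either edKO heart, whereas 7 had at least 1 in WT replicate 3 and 6 in WT replicate 4. Per heart, edKO had 0 ± 0 peaks at these genes and WT 18.5 ± 13.4 (SD, n = 2 each), so the edKO mean was lower by 18.5 peaks. The ranges of the genotypes did not overlap, but an exact permutation test of 2 hearts against 2 gave a two-sided p = 0.333, the smallest that this design allows. In a whole heart, fewer cells with bound RXR and less binding per cell cannot be told apart.

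Few genes of any kind had a peak in the edKO hearts. Over all 21883 protein-coding genes, 0.119% had a peak within 50 kb in edKO replicate 3 and 1.52% in edKO replicate 4, against 64.5% in WT replicate 3 and 33.5% in WT replicate 4. Among all 4342 regions with overlapping peaks in both WT hearts, 2.97% held an edKO peak. The peaks at the 8 genes made up 0.146% of the WT replicate 3 list and 0.192% of the WT replicate 4 list. At these shares the 127 peaks of edKO replicate 4 would hold 0.186 to 0.243 such peaks, so the absence of peaks at these genes cannot be told apart from the general loss of peaks. A count of 0 still allows a share of up to 2.36% of the edKO replicate 4 list and 37.5% of the edKO replicate 3 list, for counting error only.

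The strength of the WT peaks can be set beside the weakest peak that was listed in an edKO heart. The smallest −log10 p was 9.53 in edKO replicate 3 and 6.03 in edKO replicate 4. All 9 peaks of WT replicate 4 at the 8 genes lay above the value of edKO replicate 4, and 6 of the 9 above that of edKO replicate 3. Of the 28 peaks of WT replicate 3, 26 and 19 lay above these values in the same order. Each list was called on its own heart, so these smallest values are no detection limit that carries over to another heart. The fewest fragments at a listed summit were 24 in edKO replicate 3 and 17 in edKO replicate 4, on local backgrounds of at least 3.11 and 2.96 fragments per position. The lowest backgrounds in the WT hearts were 2.48 in WT replicate 3 and 2.32 in WT replicate 4. Among the 127 peaks of edKO replicate 4, the closest to these genes lay 1063 kb from Nr2c1 and 1396 kb from Nr4a1. Such distances were not computed over all genes, so they show nothing particular to these genes.

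Whole hearts hold several cell types, and the marker genes of those types also had WT peaks, which say nothing of transcript levels. Regions shared by the WT hearts lay within 50 kb of 9 of 10 cardiomyocyte markers, 7 of 10 endothelial markers, 2 of 10 fibroblast and epicardial markers, 1 of 8 smooth muscle and pericyte markers, and 4 of 10 blood and macrophage markers. The share over all protein-coding genes was 32.4%. Peaks of edKO replicate 4 lay within 50 kb of 3 cardiomyocyte and 2 endothelial markers, against 1.52% of all protein-coding genes. For edKO replicate 3 it was 1 endothelial marker, against 0.119%. The other marker lists had no edKO peak. Myh6 and Myh7, both among these cardiomyocyte markers, had the same strongest shared region. They are therefore not separate cases in the count of shared regions, and may not be in that of edKO replicate 4. The part of cell types in the peaks at the orphan receptors was not tested.

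**Figure D2:**
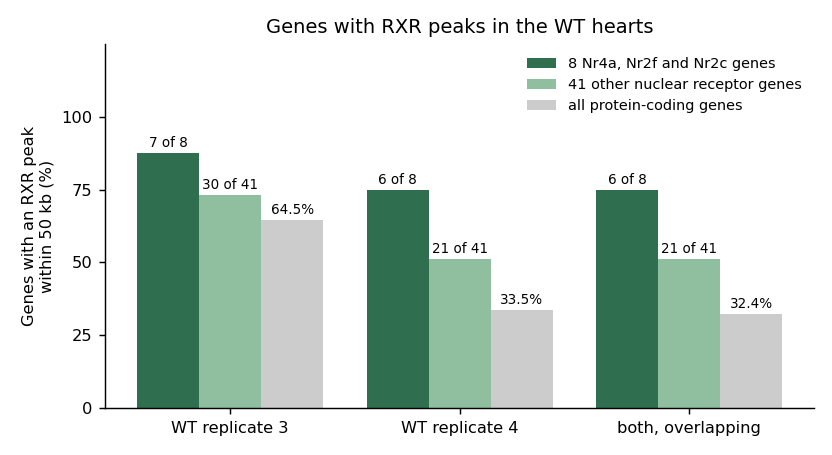
Percentage of genes (vertical axis) with an RXR peak within 50 kb in each WT heart and with a region of overlapping peaks in both, for the 8 orphan receptor genes, the 41 other nuclear receptor genes and all protein-coding genes. The 8 genes stand at 7 of 8, 6 of 8 and 6 of 8.

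The WT hearts were then read together. A region with overlapping peaks in both hearts was found at 6 of the 8 genes (75%), namely all 3 Nr4a genes, Nr2f2, Nr2c1 and Nr2c2. Nr2f1 and Nr2f6 had none. Among all protein-coding genes 32.4% had such a region within 50 kb. Of the other 41 nuclear receptor genes 21 had one (51.2%). Nr1d1 and Thra, both among these 21, had the same mean fold enrichment at their strongest region (13.6). They may therefore not be separate cases. All 9 peaks that WT replicate 4 had at the 8 genes were met by one of WT replicate 3, against 94.4% of its whole list. In the other direction 8 of 28 peaks of WT replicate 3 (28.6%) were met by one of WT replicate 4, against 22.9% of its whole list. These are counts in 2 hearts, and genes and peaks are not replicates, so no test was made.

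Fold enrichment here is the value from the authors' peak lists, the height at the summit over the local background of that heart. The 8 shared regions had a median fold enrichment of 11.0 (WT replicate 3) and 5.99 (WT replicate 4), against 9.47 and 6.13 over all 4342 shared regions. Averaged over both hearts they ran from 6.10 to 13.9, while all shared regions ran from 3.25 to 65.0. The weakest, at Nr4a3, was stronger than 26.1% of all shared regions and the strongest, at Nr2c1, was stronger than 86.3%. Taken by each gene's strongest region, the median was 9.28 for the 6 genes here, 12.4 for the 21 other nuclear receptor genes with a region and 8.67 for all 7095 genes with one. The leading genes of the other receptors were Nr1d2, a circadian repressor (41.1 in WT replicate 3 and 36.3 in WT replicate 4), Rarb, a retinoic acid receptor gene (43.5 and 25.6) and Rxrb (35.0 and 19.5), whose region was nearest to Slc39a7. These 3 were also the only ones of the 41 with a peak within 50 kb in edKO replicate 4, against 1.52% of all protein-coding genes. None of the 41 had one in edKO replicate 3, against 0.119%. Any edKO peak within 50 kb was counted, whether or not it overlapped the regions named here.

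**Figure D3:**
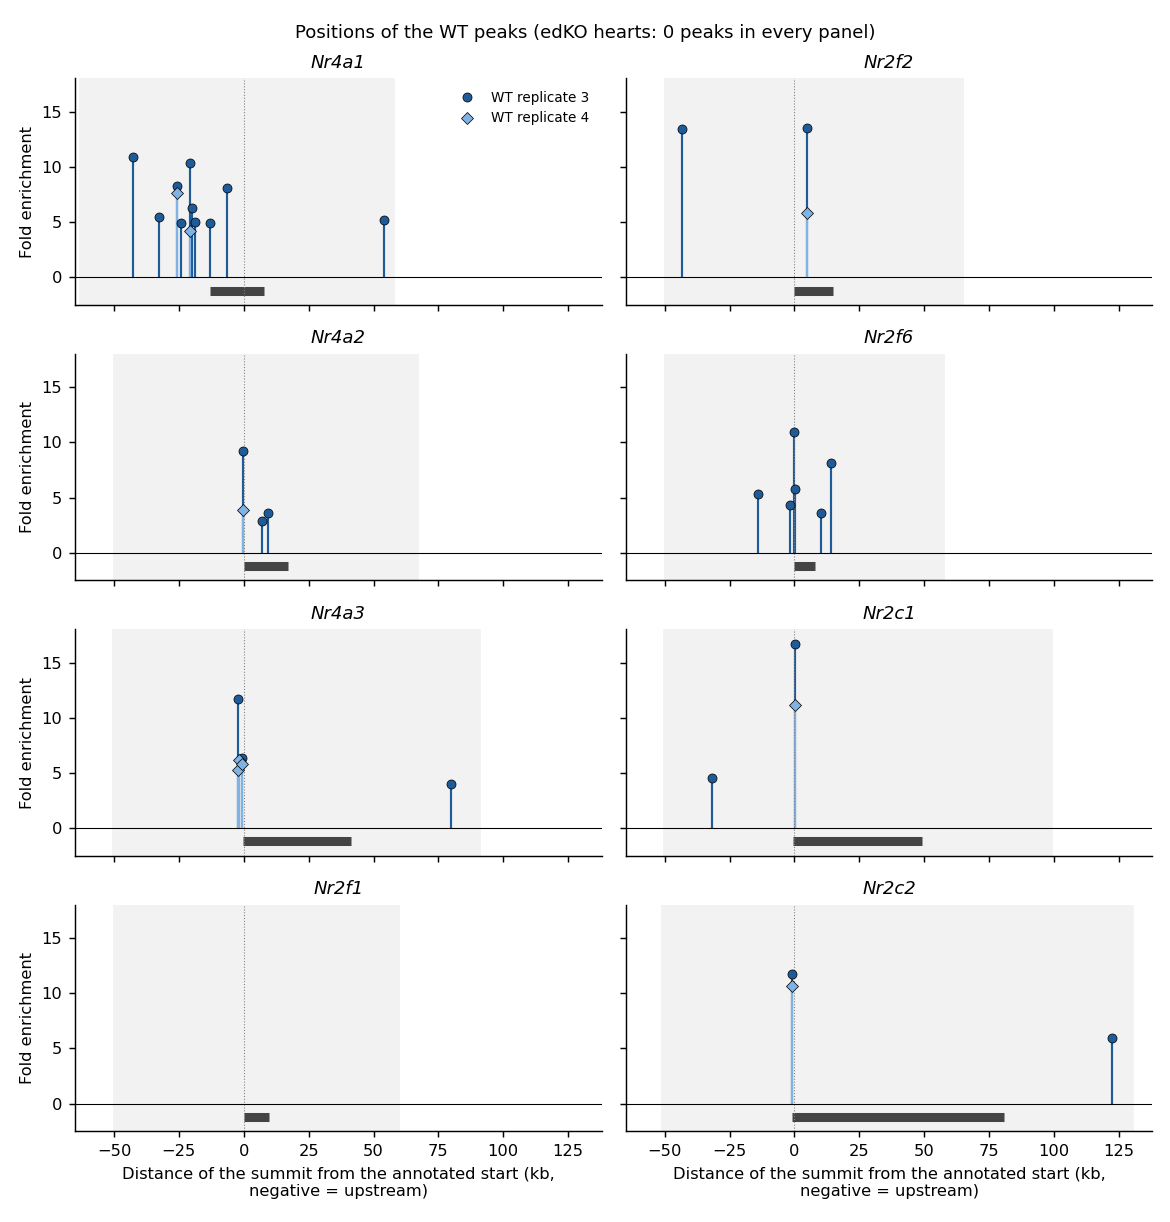
Position and authors' fold enrichment (vertical axis) of each WT peak, by the distance of its summit from the annotated start of the gene (horizontal axis, kb). The dark bar is the gene, the grey area the gene with 50 kb on either side, circles WT replicate 3 and diamonds WT replicate 4, and the Nr2f1 panel is empty.

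Nr4a1, an immediate early gene of stress and metabolic signals, had the most peaks: 10 in WT replicate 3 and 2 in WT replicate 4. Of all protein-coding genes 2.17% had at least 10 peaks of WT replicate 3 within 50 kb. Nr4a1 was picked as the highest of the 8 genes, so this share does not measure how unusual it is. Some of its 10 summits lay nearer to Grasp or Smim41. The gene lies on chromosome 15 from 101253902 to 101274795, and its outermost start belongs to a longer model than the promoter given in RefSeq's promoter table, at 101266846. Of the 10 summits 7 lay upstream of the whole gene, 2 inside it and 1 downstream. A peak of WT replicate 3 alone lay across the outermost start at 101253902, with a fold enrichment of 4.88 and 16 fragments. No peak overlapped the promoter stretch at 101266846, and the closest summit stood 6305 bp before it, in WT replicate 3 only, with a fold enrichment of 8.04 and 27 fragments. Within this group the shared regions sat close together, 25.8 kb and 20.6 kb before that start.

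The shared region of Nr4a1 farther from the start, chr15:101240920-101241586, reached a fold enrichment of 8.30 in WT replicate 3, against 7.59 in WT replicate 4. Its summits lay 22 bp apart and held 38 and 25 fragments. The local background was 3.70 fragments in WT replicate 3 and 2.32 in WT replicate 4. Here the hearts differed more in fragments (1.52 times) than in fold enrichment (1.09 times). The region lay 12847 bp outside the gene and nearer to Grasp, whose end was 8299 bp away. The nearer shared region, chr15:101246076-101246749, had Nr4a1 as its nearest gene at 7664 bp. Its fold enrichment was 10.3 in WT replicate 3 and 4.18 in WT replicate 4, which as a ratio, 2.47, was the highest among the 8 shared regions, with 35 and 18 fragments. The local background was 2.48 fragments in WT replicate 3 and 3.40 in WT replicate 4, so the hearts differed less in fragments than in fold enrichment. The strongest peak in the window of Nr4a1 (10.9, 37 fragments) was in WT replicate 3 alone and lay inside Grasp.

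Nr4a2, which encodes a receptor needed for midbrain dopamine neurons, had its only shared region at the promoter, chr2:57123774-57124418. The summits lay 217 bp and 196 bp before the start in WT replicates 3 and 4, in the stretch printed for the gene. Fold enrichment was 9.19 in WT replicate 3 and 3.87 in WT replicate 4. Fragments at the summit, 31 and 23, were closer to each other than these ratios, since the local background was 2.48 in WT replicate 3 and 5.0 in WT replicate 4. A predicted protein-coding gene without an assigned function, LOC105244150, spans the same summits, so the region cannot be given to Nr4a2 alone. The other 2 peaks of WT replicate 3 lay inside Nr4a2 and were weak, at 3.62 and 2.85. With only peaks of −log10 p of at least 10 kept, Nr4a2 had no shared region.

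Nr4a3, the remaining Nr4a gene, had 2 shared regions just before its start. The first, chr4:48042771-48043631, was 1950 bp outside the gene and had a fold enrichment of 11.7 in WT replicate 3, with 41 fragments. In WT replicate 4 it was split into 2 peaks, of 6.13 with 20 fragments and 5.26 with 17 fragments. The second, chr4:48044581-48044881, was 335 bp outside the gene, with fold enrichments of 6.36 and 5.84 and 23 and 19 fragments in WT replicates 3 and 4. Its summits were 15 bp apart, and it ended before the promoter stretch of the gene. The third peak of WT replicate 3 (3.98) lay 38.7 kb outside Nr4a3 and inside Stx17, a syntaxin gene.

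The COUP-TF genes ranged from no peak to several. Nr2f1, which encodes COUP-TFI, had no peak of either genotype within 50 kb. The nearest WT peak was 266 kb away in WT replicate 3 (3.06) and 2764 kb away in WT replicate 4 (6.42). Of all protein-coding genes 16.3% had no peak of either WT heart within 250 kb. The neighbourhood is poor in genes, with 2 other protein-coding genes within 500 kb of Nr2f1 and 1 within 500 kb of Nr2f2. By contrast 34 lay within 500 kb of Nr2f6, which had 27 peaks of WT replicate 3 and 5 of WT replicate 4 over that distance.

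Nr2f2 had a shared region inside the gene, chr7:70361412-70362180, 4903 bp after the start. Fold enrichment there was 13.5 in WT replicate 3 and 5.81 in WT replicate 4, with 46 and 23 fragments. A second peak, chr7:70409941-70410400, stood 43.4 kb upstream, with Nr2f2 as the nearest protein-coding gene. It had a fold enrichment of 13.4 and 62 fragments in WT replicate 3 (95% Poisson interval 47.5 to 79.5, for counting error only), the most fragments of any peak at the 8 genes. WT replicate 4 had no peak there. The −log10 p of this peak was 53.1, and of the 294 WT replicate 3 peaks from 50 up to 60 a share of 88.1% had an overlapping peak in the other WT heart.

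Nr2f6, which encodes a repressor best known from lymphocytes, had 6 peaks in WT replicate 3 and none in WT replicate 4. The strongest, chr8:71381986-71382538, covered most of the printed promoter stretch but not the start. Its summit lay 185 bp before the start, with a fold enrichment of 10.9 and 37 fragments (26.1 to 51.0). A peak of 5.74 stood 168 bp after the start. One of 4.31 stood 1653 bp before the start and was nearer to Ushbp1, at 669 bp. The others lay at neighbouring genes: inside Use1 (8.09), inside Ocel1 (3.62) and between Ushbp1 and Babam1 (5.30). Of all genes with 6 or more peaks of WT replicate 3 within 50 kb, 14.0% had none of WT replicate 4. The promoter peak had a −log10 p of 30.8, and 64.7% of the WT replicate 3 peaks from 30 up to 40 had an overlapping peak in the other WT heart. At 100 kb Nr2f6 had 2 shared regions, the nearer of which had its WT replicate 4 summit 82.7 kb from the gene and nearest to Abhd8.

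**Figure D4:**
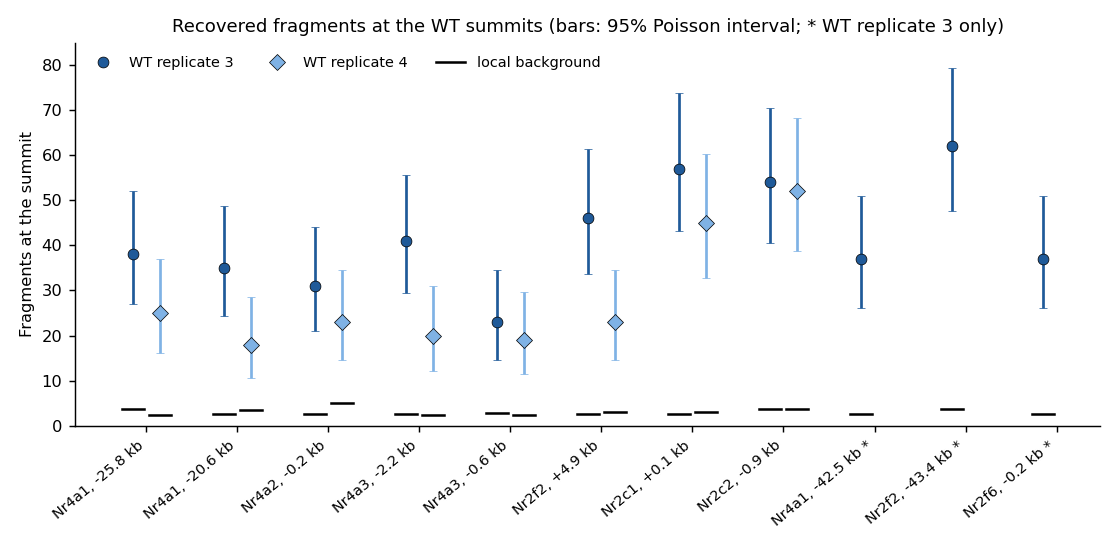
Fragments at the summit (vertical axis) recovered from the peak statistics, with 95% Poisson intervals for counting error and short lines for the local background, for the 8 shared regions and, marked with *, the 3 peaks of WT replicate 3 alone with a fold enrichment over 10. Labels give the distance of the WT replicate 3 summit from the annotated start, and the highest value is 62 at Nr2f2.

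The testicular receptor genes each carried 1 shared region near the start. Nr2c1 and Nr2c2 encode receptors that together repress embryonic globin genes in red cell precursors. The Nr2c1 region, chr10:94147814-94148493, lay 118 bp and 179 bp after the start in WT replicates 3 and 4 and was the strongest of the 8, with fold enrichments of 16.6 and 11.1. Its summits held 57 fragments (43.2 to 73.9) in WT replicate 3 and 45 (32.8 to 60.2) in WT replicate 4. The Nr2c2 region, chr6:92091226-92092410, was the widest, at 1185 bp. Its summits were 2 bp apart, 919 bp and 917 bp before the start of the promoter table and 96 bp and 98 bp inside the outermost gene model. Fold enrichment was 11.7 and 10.7, with 54 and 52 fragments. Each gene had 1 further peak in WT replicate 3 only, at Fgd6 (4.51) and near Rbsn (5.96).

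Fold enrichment was higher in WT replicate 3 at all 8 shared regions, by 1.09 to 2.47 times with a median of 1.70 times. Over all 4342 shared regions it was higher in that heart at 82.7%, with a median of 1.49 times. Differences between the hearts at single regions were not tested. In 7 of the 8 regions the summits of the hearts lay within 100 bp of each other. The exception was the first Nr4a3 region, where the summits of the strongest peaks were 368 bp apart. In 4 of the 8 regions the summit of WT replicate 3 lay within 1000 bp of the annotated start, at Nr4a2, Nr4a3, Nr2c1 and Nr2c2.

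At promoters, a peak of WT replicate 3 overlapped the 300 bp window around a RefSeq start in 4 of the 8 genes. The share among all protein-coding genes in the promoter table was 24.5%. In 3 of the 8, Nr4a2, Nr2c1 and Nr2c2, the window overlapped a peak in both hearts, against 7.34% of all. By distance, 15 of 28 peaks of WT replicate 3 and 7 of 9 of WT replicate 4 had the orphan receptor itself as the nearest protein-coding gene. The rest lay nearer to another gene, and every peak here was assigned to a gene by position only.

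Whether a WT replicate 3 peak at these genes was also listed in WT replicate 4 varied with its strength. None of the 10 peaks with a −log10 p below 10 was, against 5.08% in the whole list. Of the 7 peaks from 10 up to 20, 1 was, against 16.2% in the whole list, and of the 4 from 20 up to 30, 3 were, against 44.1%. From 30 up it was 4 of 7, against 80.9% in the whole list, with the peaks at Grasp, at the Nr2f6 promoter and upstream of Nr2f2 as the exceptions.

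**Figure D5:**
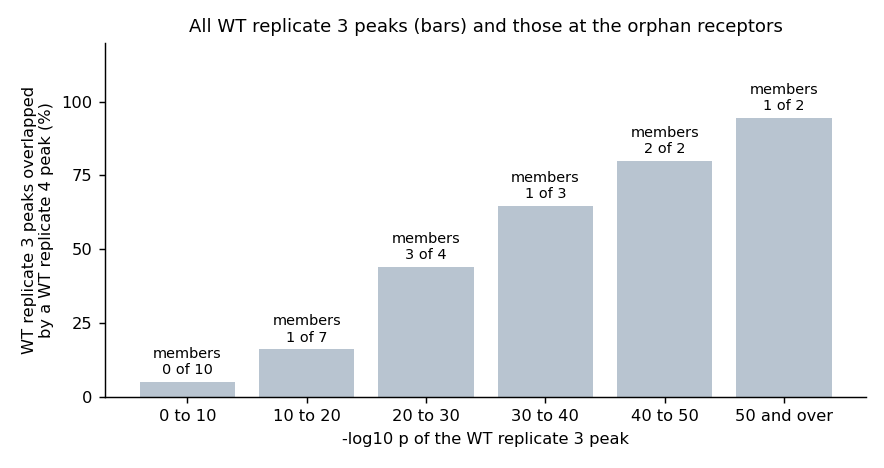
Percentage of all WT replicate 3 peaks that overlapped a WT replicate 4 peak (vertical axis) in classes of the −log10 p of the peak (horizontal axis), with the count at the 8 orphan receptor genes above each bar. The bars climb from 5.08% to 94.6%, and the count at the 8 genes in the highest class is 1 of 2.

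Genes with the pattern most like that of Nr2c1 were sought by the strongest fold enrichment within 50 kb in each of the 4 hearts, as the distance on the log2(fold + 1) scale with 0 for no peak. The closest was Fgd6, at a distance of 0, because it shares the region of Nr2c1. The next were Phf12 and Dhrs13, neighbours on chromosome 11, both at 0.0313, with 0 in both edKO hearts, 17.0 in WT replicate 3 and 11.1 in WT replicate 4.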

How the data were processed

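Per the submitters' processing notes, cutadapt, BWA, SAMtools and MACS3 were used on mm10 (GRCm38); no versions or settings are listed there. Per the labels, each heart had its own peak list from immunoprecipitate and input, so the inputs entered only as background. The deposited lists give positions, the authors' fold enrichment (a ratio with a pseudocount of 1), −log10 p and q, and a display score that was not used.

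Coordinates are 1-based. Genes came from a RefSeq table of GRCm38.p6 (21883 protein-coding genes used, of 49997 entries). Peaks sharing at least 1 bp were treated as overlapping, with 1 peak per heart in a shared region. Fragments at a summit were solved from fold enrichment and the Poisson tail behind −log10 p. All solved peaks (up to 300 per list) were whole within 0.02, after scaling by 0.967 in WT replicate 4 and 0.992 in edKO replicate 3. Whether reads were paired is unclear, since the labels mention paired sequencing in one place and single-end reads in another, so a fragment here may be 1 extended read. Duplicate removal is not stated, so intervals cover counting error only. The self-written steps were tested on simulated data.

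An exact permutation test over hearts, unpaired, was used for peak numbers, since no label ties a heart's number to a litter or day. Genes and lists were described by counts beside all genes. Named genes were the 8 members with their strongest regions, nearest genes, the 3 leading other receptors and 3 like genes; further peaks were named after their values were seen. Members and lists were chosen with earlier results of these data known. Python 3.11.15, numpy 2.4.6, pandas 2.3.3 and scipy 1.17.1 were used.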

Additional observations from a re-analysis of the deposited data

How the results depend on the processing

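The edKO hearts had 0 peaks at the 8 genes under every alternative tried, so the direction of the difference could not change. The difference, edKO minus WT, was -13.0 peaks at 10 kb, -27.0 at 100 kb and -12.0 with a −log10 p of at least 10, each with an exact two-sided permutation p = 0.333. Leaving out 1 heart gave -28.0 to -9.00 peaks. With the replicate number as a block, pairing hearts of the same number, the difference was -18.5 with an exact sign-flip p = 0.5, the smallest for 2 pairs. The number of genes with a shared region ran from 5 to 7 over all alternatives, and from 6 to 7 without 1 WT heart. The number of shared regions, 8, was 7 at 10 kb, 11 at 100 kb, 6 with a −log10 p of at least 10 and 8 under both stricter rules of overlap. When 1 WT heart was left out and all peaks of the other stood in, it was 9 to 28, the 28 being without WT replicate 4. Of 56 counts for single genes under these alternatives 10 moved by more than 1.5 times or to or away from 0, 6 of them without WT replicate 4. The edKO lists hold 8 and 127 peaks, which limits what a count of 0 at these genes can show.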

Other observations

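The peaks of both WT hearts nearest to Nr4a2 beyond 50 kb lay 114 kb away and had Gpd2, the mitochondrial glycerol phosphate dehydrogenase gene, as the nearest gene. There the fold enrichment was 29.3 in WT replicate 3 and 8.29 in WT replicate 4. A pair nearest to Nr4a1 beyond 50 kb lay 80.0 kb away and nearest to Acvr1b, an activin receptor gene, with 8.61 in WT replicate 3 and 7.59 in WT replicate 4.

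Among stretches before annotated starts that overlapped a peak in both WT hearts, 19.9% of 1429 held the hexamer GGGTCA. Of 16311 stretches that overlapped no WT peak, 10.6% did. For AGGTCA the shares were 13.0% and 13.2%. GGGTCA was searched after the sequences had been seen, and the shares were not tested or matched for base composition.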
